A study of Mus musculus with 8 samples.

Results

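Dax1 (Nr0b1) and 6 orphan nuclear receptors linked to it were followed across cultures of mouse embryonic stem cells (ESCs) with and without Dax1. The 7 genes, Nr0b1, Nr5a2, Esrrb, Esrra, Nr6a1, Nr2f1 and Nr2f2, were chosen by name and matched by symbol to the Ensembl gene identifiers of the deposited counts. They are 7 of the 52550 genes listed, and 7 of 49 listed genes that encode nuclear receptors. All 7 passed the filter on low counts, which left 20749 genes for testing. Messenger RNA was sequenced in 8 libraries, 2 in each of 4 groups. The groups were control ESCs and Dax1KO ESCs, each cultured in 2i/LIF and in LIF/serum, all at passage 3 on gelatin. The 2i/LIF medium was serum-free N2B27 with 1 µM of the MEK inhibitor PD0325901, 3 µM of the GSK3 inhibitor CHIR99021 and 10 ng/ml of the cytokine LIF. The LIF/serum medium held 15% fetal bovine serum (FBS) and 10 ng/ml LIF, without the inhibitors. The Dax1KO cells were a CRISPR/Cas9 knockout line, 1 clone named Dax1KO-7 isolated in 2i/LIF, so the clone and the loss of Dax1 cannot be told apart. The Dax1KO cells in LIF/serum had been moved there from 2i/LIF. Nothing states that the libraries of a group came from separate cultures, so p-values measure the spread between these libraries, which may be technical.

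Nuclear receptors are transcription factors with a DNA-binding domain and a ligand-binding domain, and those without a known natural ligand are called orphans. Dax1 is an unusual member that lacks the typical DNA-binding domain. It binds other receptors through short leucine-rich motifs and recruits corepressors to them, and it is best known for restraining steroid hormone synthesis in the adrenal gland and gonads by acting on the NR5A receptors. In mouse ESCs Dax1, Nr5a2 (LRH-1) and Esrrb belong to the network of factors around Oct4 and Nanog, and Dax1 is a target of several of them. Nr5a2 and the oestrogen-related receptors bind DNA as monomers at the core AGGTCA with an extension at its 5′ end. Esrra directs genes of mitochondrial energy metabolism. Nr6a1 (GCNF) silences Oct4 when ESCs differentiate, and Nr2f1 and Nr2f2 (COUP-TFI and COUP-TFII) are receptors of differentiating neural and mesodermal cells.

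The stretch below, around the start codon of Nr0b1, is shown because the guide of the knockout was designed there. It lies at chrX:86191785-86191819 of GRCm38 on the plus strand, in the first exon, and the capitals mark the start codon, after the last 16 bases of the untranslated leader.
Nr0b1 start codon: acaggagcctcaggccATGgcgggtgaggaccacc
The promoters of Nr0b1 and Nr5a2, the 2 genes that fell in Dax1KO cells, are shown with the core AGGTCA in capitals. Both are the 250 bases before a RefSeq transcript start in GRCm38.p6, the promoter of Nr0b1 at chrX:86191525-86191774 on the plus strand and the promoter of Nr5a2 at chr1:136960449-136960698 on the minus strand.
Nr0b1: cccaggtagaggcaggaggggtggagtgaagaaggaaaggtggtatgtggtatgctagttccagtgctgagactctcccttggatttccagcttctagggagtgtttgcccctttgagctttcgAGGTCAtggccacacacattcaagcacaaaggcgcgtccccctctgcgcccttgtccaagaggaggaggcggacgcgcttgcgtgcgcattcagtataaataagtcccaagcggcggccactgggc
Nr5a2: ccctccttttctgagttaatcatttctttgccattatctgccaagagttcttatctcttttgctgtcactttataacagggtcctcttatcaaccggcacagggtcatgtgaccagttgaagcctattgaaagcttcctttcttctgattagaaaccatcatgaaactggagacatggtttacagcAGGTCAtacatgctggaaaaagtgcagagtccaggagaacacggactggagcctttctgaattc
The core AGGTCA or its reverse complement TGACCT was searched on both strands of all 32851 RefSeq mouse promoters of this length, and 14.02% held it. In Nr0b1 it started 126 bases before the transcript start, preceded by TCG, and in Nr5a2 64 bases before it, preceded by AGC. A second promoter of Nr6a1 held the reverse complement at 2 places, 91 and 45 bases before its start. A second promoter of Nr5a2, at chr1:136953631-136953880, and the promoters of Esrrb, Esrra, Nr2f1 and Nr2f2 did not hold these letters. The extended form CAAGGTCA, held by 1.33% of promoters, and TCAAGGTCA, held by 0.387%, were not found in a promoter of the 7 genes in this window. A match of letters is a description and does not show binding.

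Total counts lay between 35911384 and 37286251 per library, so depth differed little between groups. A normalized count below is a count divided by its library's TMM-scaled size and multiplied by the mean scaled size, and levels are given as the mean ± SD of the 2 libraries. Calls rest on edgeR's quasi-likelihood test with p values adjusted over all 20749 genes by the method of Benjamini and Hochberg, and a gene was called where its adjusted p did not exceed 0.05. As a check of the cell type, none of 14 ESC markers, Oct4 (Pou5f1), Sox2 and Nanog among them, was at 0 in a library, and their summed normalized counts ranged from 238209 to 295284. Of the 14, 2 were called in Dax1KO cells in each medium by edgeR and 5 by DESeq2. Beside these and the marker lists below, edgeR called 1.51% of all genes higher and 1.65% lower in Dax1KO cells in 2i/LIF. In LIF/serum these shares were 8.87% and 5.78%. In 2i/LIF Klf2 was lower at -0.76 and Prdm14 at -0.86 on the log2 scale, and in LIF/serum Klf2 was lower at -1.14 and Klf4 higher at 0.79. The call of Klf2 in LIF/serum held in all alternatives, that of Klf4 was lost without LIF/serum Dax1KO replicate 1 (edgeR adjusted p = 0.0529), and those in 2i/LIF were each lost in 9 of 15, among them all 4 libraries of 2i/LIF and both Dax1KO libraries of LIF/serum left out in turn, with Prdm14 also lost without LIF/serum control replicate 2. In LIF/serum, 6 of 9 primitive endoderm markers were called higher in Dax1KO cells, and 7 without LIF/serum control replicate 1, 4 without LIF/serum control replicate 2 and 3 without either LIF/serum Dax1KO library. Their normalized counts summed to 28035 and 15407 in control and 67601 and 51795 in Dax1KO cells, while the 2i/LIF libraries of both lines held 8841 to 11959. None of the 9 was at 0 in a library. Of 8 trophectoderm markers 2 were called higher in Dax1KO cells in 2i/LIF, and 3 were called higher and 1 lower in LIF/serum. Their sums were 4438 and 4961 in control against 6505 and 6368 in Dax1KO cells in 2i/LIF, and 4007 and 4147 against 5547 and 5135 in LIF/serum, with at most 1 marker at 0 in a library. Of 7 fibroblast markers 5 were tested. In 2i/LIF 1, Thy1, was called lower in Dax1KO cells, a call lost in 7 of 15 alternatives. The sums there were 1873 and 2363 against 1348 and 1263, while the median log2 fold change of the 5 was 1.35, so the lower sum does not describe most of them. In LIF/serum 2 were called higher, with sums of 458 and 486 against 1498 and 1434. Each library had 2 to 4 of the markers at 0. With a library left out, the count of trophectoderm calls lay between 0 and 1 in 2i/LIF and between 2 and 4 in LIF/serum. Of 7 mesoderm markers edgeR called 0 in Dax1KO cells in 2i/LIF (2 at an unadjusted p of at most 0.05, 0 by DESeq2). In LIF/serum 1 was called lower, a call lost in 9 of 15 alternatives. Their sums in 2i/LIF were 672 and 548 in control and 371 and 446 in Dax1KO cells. In LIF/serum they were 2266 and 2849 against 1756 and 1622, so the sums were lower in 2i/LIF in both lines. Single markers did not all follow the sums. In control cells 2 of the 7 were called lower in 2i/LIF and 5 were not called, with a median log2 fold change of 0.35. In Dax1KO cells 3 were called lower and 4 were not called, with a median of -0.15. Of all genes tested 16.5% and 13.7% were called lower. Of 6 neural markers tested edgeR called 0 in Dax1KO cells in 2i/LIF (3 at an unadjusted p of at most 0.05, 1 by DESeq2), and 1 was called lower in LIF/serum. The sums of all 7 lay between 4666 and 6410 in the 8 libraries. Between media the neural markers went both ways. In control cells 2 were called higher in 2i/LIF and 1 lower, and in Dax1KO cells 3 higher and 2 lower. Nes, an intermediate filament of neural progenitors, was higher at 2.39 in control and 2.64 in Dax1KO cells on the log2 scale, and Tubb3, a tubulin of neurons, lower at -1.25 and -1.64. Map2, a neuronal microtubule protein, was higher at 0.85 and 1.45, but in control cells its call was lost without 2i/LIF replicate 2 (0.45, edgeR adjusted p = 0.174), without LIF/serum replicate 1 (0.95, 0.0544) or without LIF/serum replicate 2 (0.73, 0.122). The part of these markers in the differences below was not tested. In such bulk samples fewer cells of a type and less RNA per cell cannot be told apart.

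Nr0b1 is the gene that was targeted. In 2i/LIF control cells had 456 and 300 counts of it and neither Dax1KO library had any (0 counts), and in LIF/serum there were 5095 and 4689 counts against 14 and 6. The 2 Dax1KO libraries lay below both control libraries in each medium. Against a floor of 3 counts per library, which covers counting error only, the fall of Nr0b1 in 2i/LIF was at least 129-fold, a floor that stands at 0.772% of the control level. Low counts pile up at 3 and 6, and if a fragment stood for 3 counts, the floor would be 9 counts, 2.32% of the control level, and the bound 43.2-fold. In LIF/serum 0.185% of the control level remained (log2 fold change -9.06, standard error 0.38, edgeR adjusted p = 0.000395). The remainder seen in LIF/serum is thus a smaller share than could have been seen in 2i/LIF. Gk and Tab3, the nearest listed neighbours on 1 side of Nr0b1, were not called in Dax1KO cells in either medium, with log2 fold changes from -0.03 to 0.20. Mageb4, on the other side, was called higher in LIF/serum at 2.46 (standard error 0.24, edgeR adjusted p = 0.00179), but not in 2i/LIF at 0.23 (95% interval -0.26 to 0.72, edgeR adjusted p = 0.665). The Mageb4 call held under each of 15 alternatives.

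**Figure D1:**
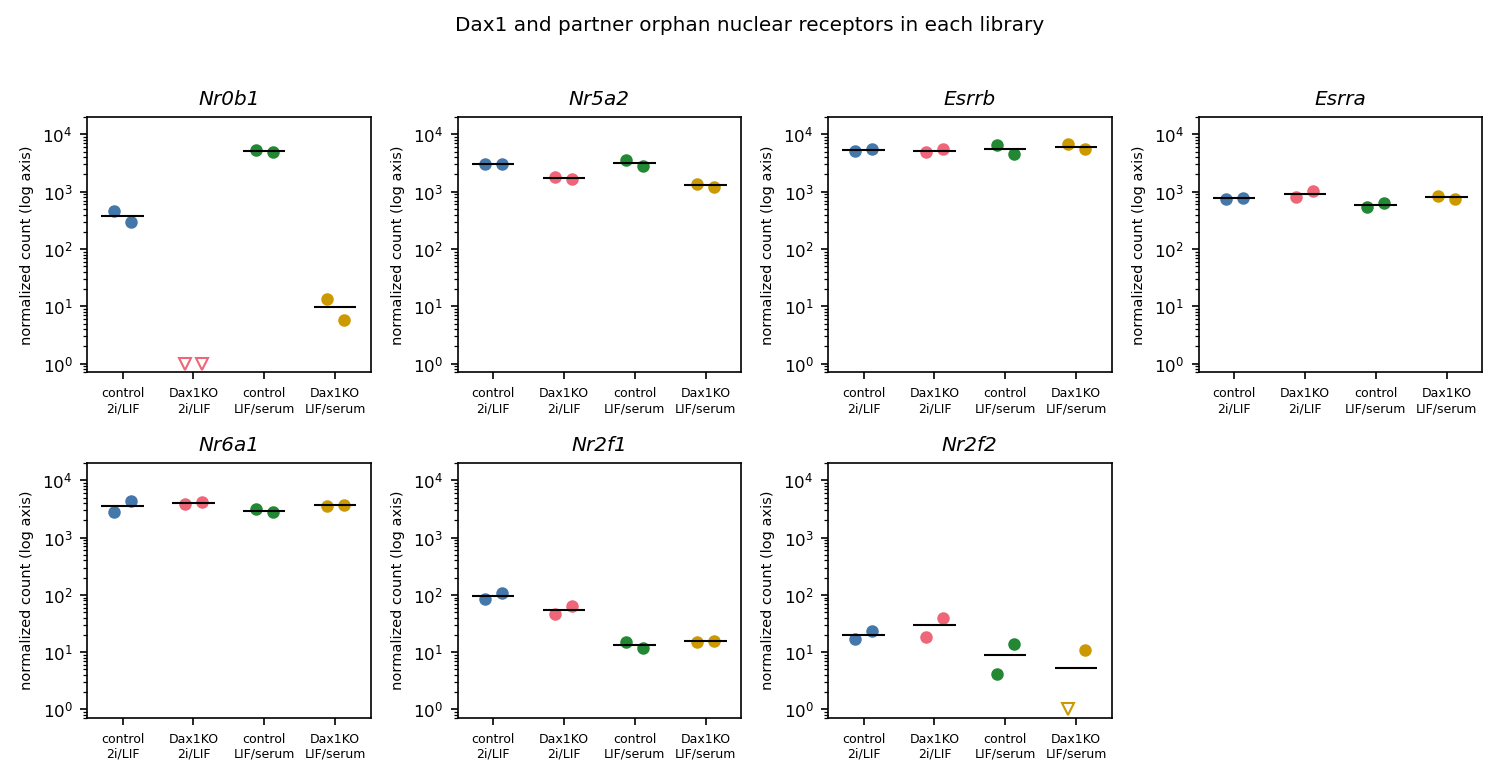
Normalized counts of the 7 receptors on a log axis, with a panel for each gene and a column for each group. Filled points are libraries, black lines are means of the 2 libraries, and open triangles at the bottom are libraries with a count of 0. Nr0b1 falls to 0 in both Dax1KO libraries in 2i/LIF, Nr5a2 lies lower in Dax1KO cells in both media, and Nr2f1 lies higher in 2i/LIF than in LIF/serum.

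Nr5a2, a receptor that binds Dax1 and activates Oct4 in ESCs, was the other gene of the 7 that was lower in Dax1KO cells. Control cells held 3035 and 3043 normalized counts of it in 2i/LIF, and Dax1KO cells 1778 and 1689. In LIF/serum control cells held 3563 and 2820, and Dax1KO cells 1368 and 1217. The groups did not overlap in either medium, and the highest Dax1KO library of all 4 lay well below the lowest control library. Dax1KO cells held 57.0% of the control level in 2i/LIF (1733 ± 63.0 against 3039 ± 5.31, SD, n = 2) and 40.5% in LIF/serum (1292 ± 107 against 3192 ± 526, SD, n = 2). The log2 fold change was -0.81 in 2i/LIF (standard error 0.14, edgeR adjusted p = 0.0276) and -1.30 in LIF/serum (standard error 0.14, edgeR adjusted p = 0.00244). Nr0b1 and Nr5a2 thus made up the 2 called lower of 7 in each medium, and none of the 7 was called higher. The call of Nr0b1, the targeted gene, was set by the design, and Nr5a2 was the only one called of the other 6. Of all genes tested in 2i/LIF, 3.16% were called, 1.65% lower and 1.51% higher. Of those in LIF/serum, 14.7% were called, 5.78% lower and 8.87% higher.

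The 2 calls of Nr5a2 differed in how often they held with a library left out. Leaving out a library leaves only 1 in its group and lowers the power of the test for all genes. A lost call therefore does not show that the result rested on that library. In LIF/serum Nr5a2 stayed called with each of the 8 libraries left out in turn, at a log2 fold change between -1.47 and -1.13. In 2i/LIF the size hardly moved, from -0.85 to -0.77, but the call held only without LIF/serum control replicate 1 or 2. The adjusted p from edgeR was 0.121 and 0.117 without 2i/LIF control replicate 1 and 2, 0.161 and 0.189 without 2i/LIF Dax1KO replicate 1 and 2, and 0.05005 and 0.0514 without LIF/serum Dax1KO replicate 1 and 2. Without a filter on low counts it was 0.0696. The fall in LIF/serum exceeded that in 2i/LIF by 0.49 on the log2 scale (95% interval of the difference, coded LIF/serum minus 2i/LIF, -0.95 to -0.04), and this difference between media was not called (edgeR adjusted p = 0.227). In control cells the medium made little difference to Nr5a2, at a log2 fold change of -0.07 for 2i/LIF against LIF/serum (95% interval -0.39 to 0.25, edgeR adjusted p = 0.729). In Dax1KO cells the same comparison gave 0.42 (95% interval 0.10 to 0.75), which was not called (edgeR adjusted p = 0.0558). It was called without LIF/serum control replicate 1 or 2, with edgeR adjusted p of 0.0284 and 0.0338, in a separate fit of the cell line (0.0492) and with the replicate number as a block (0.0393).

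Esrrb, a central activator of the naive pluripotency network and a further partner of Dax1, was not called in any comparison. Its normalized counts in 2i/LIF were 5203 and 5636 in control cells and 4839 and 5532 in Dax1KO cells, and in LIF/serum 6450 and 4498 against 6799 and 5515. The control and Dax1KO libraries overlapped in both media. The log2 fold change in Dax1KO cells was -0.06 in 2i/LIF (95% interval -0.49 to 0.36) and 0.17 in LIF/serum (95% interval -0.26 to 0.60), and changes inside these limits were not detectable with 2 libraries per group. The 2 control libraries in LIF/serum differed by 1.43-fold. The medium made no called difference to Esrrb either, at -0.01 in control cells (95% interval -0.44 to 0.41) and -0.25 in Dax1KO cells (95% interval -0.67 to 0.18).

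Esrra, which encodes the oestrogen-related receptor of oxidative metabolism, had normalized counts in 2i/LIF of 757 and 777 in control cells and 799 and 1039 in Dax1KO cells. In LIF/serum they were 551 and 627 in control cells and 845 and 751 in Dax1KO cells. Both Dax1KO libraries lay above both control libraries in each medium, although the gene was not called. The log2 fold change was 0.26 in 2i/LIF (95% interval -0.13 to 0.65, edgeR adjusted p = 0.500) and 0.44 in LIF/serum (95% interval 0.04 to 0.83, edgeR adjusted p = 0.128). Of the exon bases of Esrra, 73 are shared with Trmt112 on the opposite strand, which had 971 to 2162 counts, and no source states whether strand was used in counting.

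Nr6a1, the repressor of Oct4 in differentiating cells, was well detected in every library, at 2601 counts or more. Its normalized counts in 2i/LIF were 2776 and 4405 in control cells and 3860 and 4250 in Dax1KO cells, and in LIF/serum 3133 and 2774 against 3627 and 3680. The groups overlapped in 2i/LIF, where the 2 control libraries differed by 1.59-fold, and did not overlap in LIF/serum. The log2 fold change was 0.18 in 2i/LIF (95% interval -0.28 to 0.64) and 0.31 in LIF/serum (95% interval -0.15 to 0.77), and neither was called (edgeR adjusted p = 0.740 and 0.342). Between media it was not called in control cells, at 0.28 (edgeR adjusted p = 0.307). Without 2i/LIF control replicate 1 the value for Nr6a1 was 0.58 and was called (edgeR adjusted p = 0.0265), and without 2i/LIF control replicate 2 it was -0.13, so that here the control libraries in 2i/LIF decided the direction.

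Nr2f1 and Nr2f2, the COUP-TF receptors, were rare transcripts in all groups. Nr2f1 had counts of 83 and 107 in control cells and 47 and 66 in Dax1KO cells in 2i/LIF, and of 14 and 11 against 16 and 16 in LIF/serum. All 4 libraries of 2i/LIF lay above all 4 of LIF/serum. Control cells held 7.10-fold more Nr2f1 in 2i/LIF than in LIF/serum (log2 fold change 2.83, standard error 0.38, edgeR adjusted p = 0.000881), and Dax1KO cells 3.55-fold more (log2 fold change 1.83, standard error 0.37, edgeR adjusted p = 0.00791). The second of these was lost without 2i/LIF Dax1KO replicate 2, at 1.56 (edgeR adjusted p = 0.0572). In 2i/LIF both Dax1KO libraries lay below both control libraries, with a log2 fold change of -0.79 (95% interval -1.55 to -0.02) that was not called (edgeR adjusted p = 0.267). In LIF/serum the value was 0.22 (95% interval -0.70 to 1.13), and the difference between media, 1.00, was not called either (edgeR adjusted p = 0.346). Of the exon bases of Nr2f1, 123 are shared with its antisense gene A830082K12Rik, which had 0 to 11 counts.

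Nr2f2 had counts of 17 and 23 in control cells and 19 and 41 in Dax1KO cells in 2i/LIF, and of 4 and 13 against 0 and 11 in LIF/serum. The libraries of 2i/LIF lay above those of LIF/serum, and the control and Dax1KO libraries overlapped in both media. No comparison called it, with a log2 fold change of 1.14 between media in control cells (95% interval -1.36 to 3.64) and of 2.43 in Dax1KO cells (95% interval -0.17 to 5.02). Without LIF/serum Dax1KO replicate 2, whose removal leaves only the library with 0 counts in that group, the latter comparison called Nr2f2 (edgeR adjusted p = 0.0298). At this depth a several-fold change of Nr2f2 was not detectable.

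**Figure D2:**
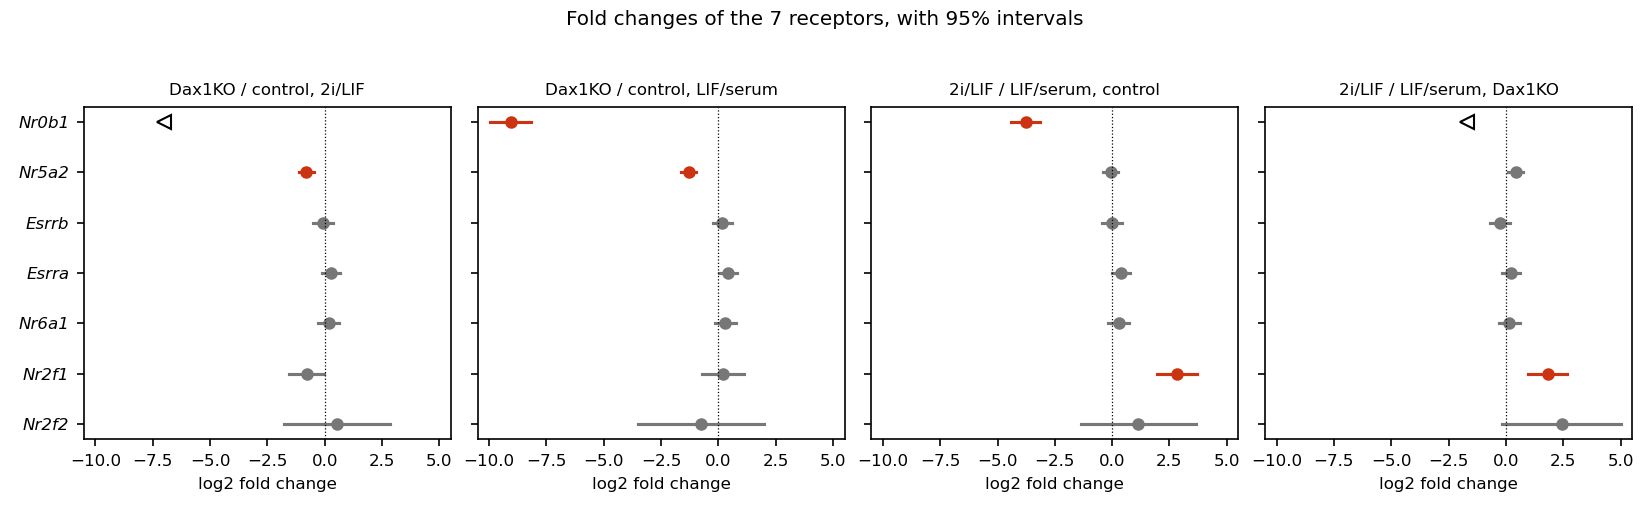
Log2 fold changes of the 7 receptors in 4 comparisons, with points for the edgeR estimate and lines for its 95% interval. Red marks an adjusted p of at most 0.05, grey marks genes not called, and the open triangles for Nr0b1 are bounds at the floor of 3 counts per library. Apart from Nr0b1, Nr5a2 is called lower in Dax1KO cells in both media and Nr2f1 is called higher in 2i/LIF in both cell lines.

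Between media, 2 of the 7 genes were called in control cells, Nr0b1 lower and Nr2f1 higher in 2i/LIF, where 36.8% of all genes tested were called, 20.3% higher and 16.5% lower. At 2 of 7 the share of members was not above this background. Nr0b1 was 13.7-fold lower in 2i/LIF than in LIF/serum in control cells (379 ± 111 against 5202 ± 283 normalized counts, SD, n = 2), at a log2 fold change of -3.78 (standard error 0.27, edgeR adjusted p = 0.000113). In Dax1KO cells the same 2 genes were called in the same directions, where 28.9% of all genes were called, 15.2% higher and 13.7% lower. There Nr0b1 was at the floor in 2i/LIF and at least 3.29-fold lower than the remainder in LIF/serum, a bound that falls to 1.10 where a fragment stands for 3 counts, and a call that was lost without 2i/LIF Dax1KO replicate 2 (edgeR adjusted p = 0.0526). The effect of Dax1KO was called different between the media for 0 of the 7 genes by edgeR and by DESeq2, and for 1 gene, Nr5a2, at an unadjusted p of at most 0.05, where edgeR called 2.87% of all genes, 2.05% higher and 0.824% lower. The fitted difference for Nr0b1 depends on the 0 counts in 2i/LIF and has no meaning as a size.

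Levels were compared between genes per kb of exon. In control cells in LIF/serum Nr0b1 led the 7 at 2877 ± 157 normalized counts per kb, followed by Esrrb at 905 ± 228, Nr5a2 at 541 ± 89.1, Nr6a1 at 273 ± 23.4, Esrra at 134 ± 12.2, Nr2f1 at 2.61 ± 0.432 and Nr2f2 at 1.05 ± 0.789 (SD, n = 2). No neighbours in this order overlapped. In control cells in 2i/LIF the order was Esrrb at 896 ± 50.7 per kb, Nr5a2 at 515 ± 0.900, Nr6a1 at 332 ± 106, Nr0b1 at 209 ± 61.5, Esrra at 175 ± 3.25, Nr2f1 at 18.7 ± 3.30 and Nr2f2 at 2.32 ± 0.489, and only Nr0b1 and Esrra overlapped. In Dax1KO cells Nr6a1 stood above Nr5a2 in both media, at 375 ± 25.4 against 294 ± 10.7 per kb in 2i/LIF and 338 ± 3.47 against 219 ± 18.1 in LIF/serum, without overlap. Esrrb led the 7 in Dax1KO cells, at 858 ± 81.1 per kb in 2i/LIF and 1018 ± 150 in LIF/serum.

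Nr0b1 took 58.8% and 63.0% of the summed per-kb level of the 7 genes in the control libraries in LIF/serum, and 12.2% and 7.47% in those in 2i/LIF. Among all 49 receptors it took 23.9% and 24.7% in the LIF/serum control libraries, against 4.54% and 3.00% in 2i/LIF. Without Nr0b1, the other 6 genes together summed to 1822 and 2056 per kb in control and 1651 and 1848 in Dax1KO cells in 2i/LIF, and to 2089 and 1625 against 1887 and 1634 in LIF/serum. The libraries of control and Dax1KO cells overlapped in this sum in both media.

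**Figure D3:**
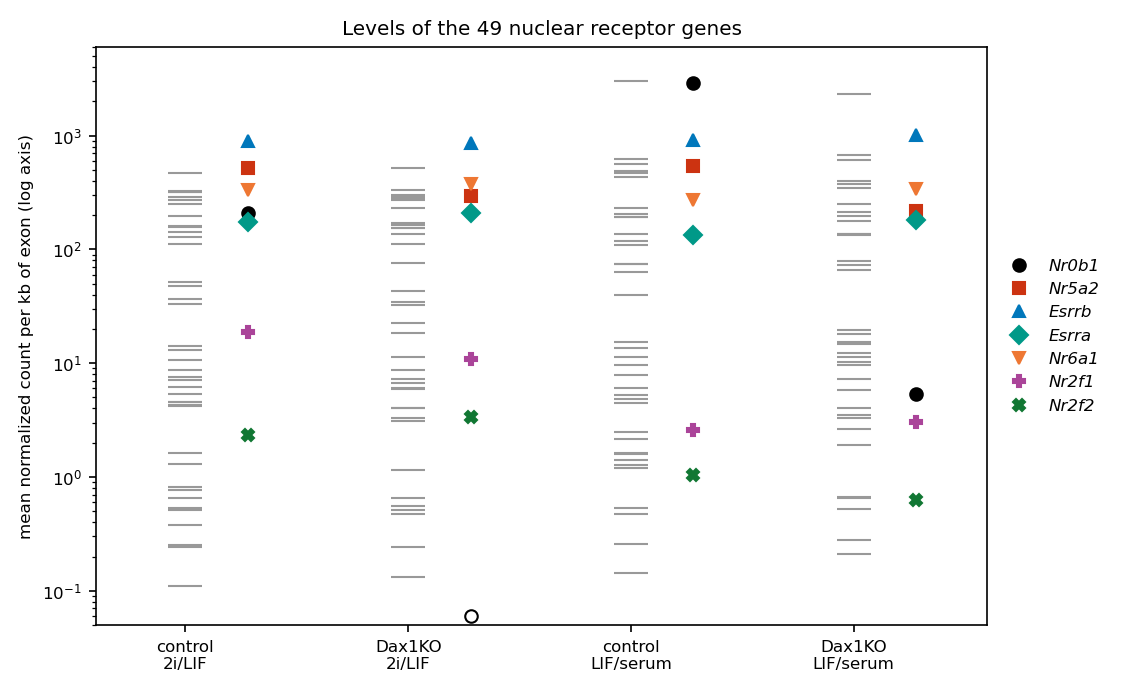
Mean normalized counts per kb of exon on a log axis for the 49 nuclear receptor genes, with a column for each group. Grey dashes are the other receptors with a level above 0, coloured symbols are the 7 receptors of this report, and the open circle at the bottom is Nr0b1 at 0. In LIF/serum control cells Nr0b1 stands beside Rarg at the top of the family, and Esrrb leads the family in 2i/LIF.

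Of the 42 other nuclear receptors 31 passed the filter on low counts. Nr5a1, the adrenal and gonadal relative of Nr5a2 and the classical partner of Dax1 there, was at 0 in all 8 libraries, which allows up to 3 counts per library. In 2i/LIF 0 of the 31 were called in Dax1KO cells by edgeR and by DESeq2, while 5 had an unadjusted p of at most 0.05. In LIF/serum edgeR called 1 and DESeq2 2, and 9 had an unadjusted p of at most 0.05, where 14.7% of all genes were called. The gene called by edgeR was Hnf4a, a receptor of liver and visceral endoderm, with counts of 578 and 493 in control and 997 and 971 in Dax1KO cells. Its log2 fold change was 0.74 (standard error 0.19, edgeR adjusted p = 0.0371). The call of Hnf4a was lost, at an edgeR adjusted p of 0.0503 to 0.148, without either Dax1KO library of 2i/LIF, without any of the 4 libraries of LIF/serum, without a filter and in a separate fit, while the size stayed between 0.62 and 0.85. Hnf4a moved together with the primitive endoderm markers described above, whose part in this call was not tested. The median log2 fold change of the 31 was 0.14 in 2i/LIF and 0.25 in LIF/serum, beside -0.01 and 0.01 over all genes tested.

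Between media in control cells 5 of the 31 other receptors were called higher in 2i/LIF and 10 lower, beside 20.3% and 16.5% of all genes tested. Among the higher were the mineralocorticoid receptor Nr3c2 at 2.07 and the progesterone receptor Pgr at 0.97 on the log2 scale, with the thyroid hormone receptor Thra at 1.31 and the fatty acid receptor Ppard at 0.50. Lower were the retinoic acid receptors Rarg at -3.20 and Rara at -1.32, Hnf4a at -1.83, Rora at -1.07, Nr1i3 at -1.03, the immediate-early receptor Nr4a1 at -0.95, the clock repressor Nr1d1 at -0.85, Nr2f6 at -0.61 and Rxrb at -0.55. Rxrg, a partner of retinoic acid receptors, had counts of 3 and 0 in 2i/LIF and 95 and 77 in LIF/serum. Of these 15 calls 9 held in all alternatives. The calls of Pgr and Rora were lost without any of the 4 control libraries or either Dax1KO library of 2i/LIF, and that of Nr1i3 without any of the 4 control libraries. DESeq2 did not call Pgr in control cells (DESeq2 adjusted p = 0.136). Those of Rxrb (2i/LIF control replicate 1 or 2, or LIF/serum control replicate 2), Nr1d1 (2i/LIF control replicate 2, 2i/LIF Dax1KO replicate 1 or LIF/serum control replicate 1) and Ppard (2i/LIF control replicate 1 or LIF/serum control replicate 2) were lost without the libraries named. Without a filter the calls of Rora, Nr1i3 and Nr1d1 were lost, and in a separate fit those of Pgr and Ppard. The edgeR adjusted p of these lost calls lay between 0.0501 for Nr1i3 and 0.177 for Rora.

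In Dax1KO cells 5 of the 31 receptors were higher in 2i/LIF and 7 lower, beside 15.2% and 13.7% of all genes. Rxrg was at least 9.59-fold lower, or 3.20-fold where a fragment stands for 3 counts, with 0 counts in both 2i/LIF libraries. With the 7 receptors included, 38 were tested, 17 were called in control cells and 14 in Dax1KO cells. These comparisons have no library in common, but they come from 1 fit with a shared estimate of the spread, so their calls are not independent. In both, 12 receptors were called, 70.6% of the former and 85.7% of the latter, all in the same direction. Over all genes 4302 were called in both, 56.3% of the control calls and 71.7% of the Dax1KO calls, and 98.5% of them had the same direction. Nr0b1 and Nr2f1 were among the 12, with the losses without 2i/LIF Dax1KO replicate 2 given above. Of the others the Dax1KO call of Nr3c2 was lost without either 2i/LIF control library, either 2i/LIF Dax1KO library or LIF/serum Dax1KO replicate 1 and with the block (0.0609), and that of Rora without any of the 4 libraries of 2i/LIF or LIF/serum Dax1KO replicate 2. Both were also lost without a filter and in a separate fit. That of Thra was lost without either 2i/LIF Dax1KO library or LIF/serum Dax1KO replicate 1, and that of Rara without 2i/LIF Dax1KO replicate 1. The count of 12 was thus not kept with every library left out. The edgeR adjusted p of these lost calls lay between 0.0512 for Nr3c2 and 0.276 for Rora. Called only in Dax1KO cells were Nr4a2, an orphan receptor of dopaminergic neurons, at 1.66, and Pparg, the receptor of fat cell differentiation, with 4 and 0 counts in 2i/LIF against 39 and 30 in LIF/serum. Nr4a2 was not called without replicate 2 of the Dax1KO libraries of either medium (edgeR adjusted p 0.189 and 0.141), without a filter (0.0600) or in a separate fit (0.0560). Pparg was not called without 2i/LIF Dax1KO replicate 2, LIF/serum control replicate 1 or either LIF/serum Dax1KO library or without a filter (0.0536 to 0.156). A difference of the medium effect between the cell lines was not called by edgeR or DESeq2 for a tested receptor, while 6 of the 31 had an unadjusted p of at most 0.05.

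**Figure D4:**
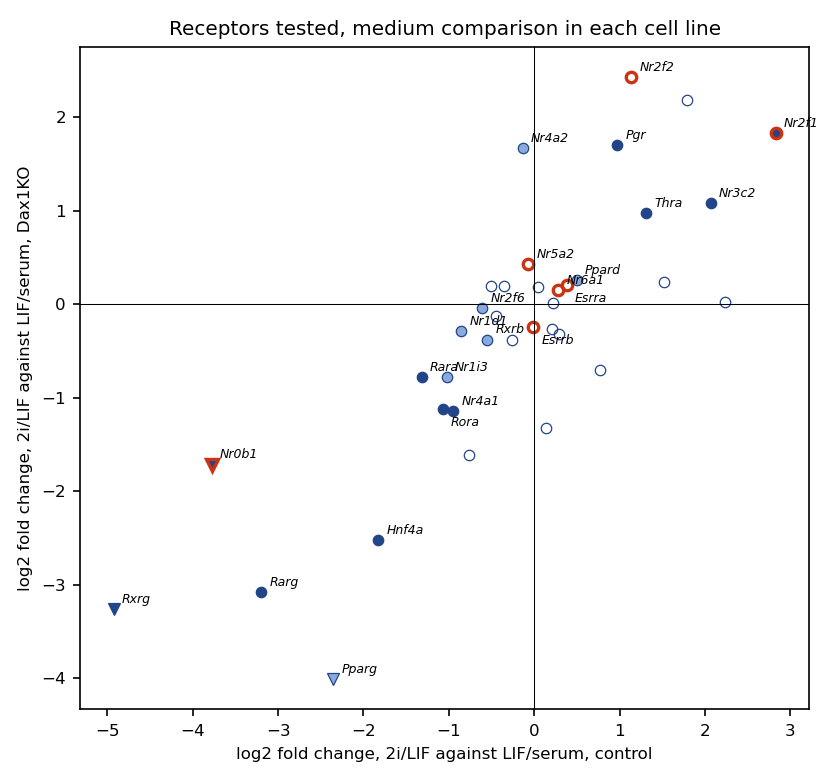
Log2 fold change of 2i/LIF against LIF/serum in control cells (x axis) and in Dax1KO cells (y axis) for 37 of the 38 receptors tested. Dark points were called in both cell lines, light points in 1 of them and open points in neither, red rims mark the 7 receptors of this report, and triangles are genes with a group at or under the floor of 3 counts per library, drawn on that axis at the fold against the floor. Nr2f1 lies at the upper right, and Nr0b1 at the lower left with Rarg and Rxrg.

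Dax1 works through corepressors, and 10 genes of such complexes were listed. In 2i/LIF 0 of 10 were called in Dax1KO cells by edgeR and by DESeq2, and 1 had an unadjusted p of at most 0.05. In LIF/serum 2 rose and 1 fell, beside 8.87% and 5.78% of all genes. DESeq2 called 4 of them, and with a library left out edgeR called 1 to 4. Nrip1 (RIP140), which binds the ligand-binding domain of receptors and competes with coactivators, had normalized counts of 358 and 349 in control and 766 and 688 in Dax1KO cells. The Dax1KO libraries lay above both control libraries, at a log2 fold change of 1.04 (standard error 0.14, edgeR adjusted p = 0.00513), and Nrip1 stayed called under each of 15 alternatives. Gps2, a subunit of the NCoR complex, rose by 0.67 on the log2 scale (edgeR adjusted p = 0.0386). Cops2 (Alien), a corepressor known to bind Dax1, fell by 0.76 on the log2 scale (edgeR adjusted p = 0.0215), from 9688 and 8816 counts to 5579 and 6465. The call of Gps2 was lost without any library other than LIF/serum control replicate 1, without a filter and in a separate fit, with edgeR adjusted p up to 0.186. The call of Cops2 was lost without LIF/serum control replicate 1 or either LIF/serum Dax1KO library and without a filter, with edgeR adjusted p up to 0.111. Of 12 coactivators listed 11 were tested. In 2i/LIF edgeR called 0 and DESeq2 1 of them in Dax1KO cells, and 1 had an unadjusted p of at most 0.05. In LIF/serum 1 was called, Ncoa1 at 0.50 (edgeR adjusted p = 0.0488), which was lost in 11 of 15 alternatives, with any library other than LIF/serum control replicate 1 left out (up to 0.177), with the replicate block (0.0569), with RLE factors, without a filter and in a separate fit. Ppargc1a, the coactivator of Esrra in muscle and brown fat, was at 0 in all libraries, and its relative Ppargc1b was not called in Dax1KO cells.

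Of 10 genes of the pathways that act on Dax1 in ESCs, Oct4 and Nanog, the LIF receptor and Stat3, and the Wnt effectors, 0 were called in Dax1KO cells in either medium by edgeR. DESeq2 called 1 in 2i/LIF and 0 in LIF/serum, and 5 and 2 had an unadjusted p of at most 0.05. Of all genes tested edgeR called 3.16% and 14.7%. Between media in control cells, where Nr0b1 was 13.7-fold lower in 2i/LIF, Nanog was higher at 1.39 and Tcf7 at 0.91 on the log2 scale. Lef1, the Wnt effector, was lower at -2.72 and Pou5f1 at -0.68. Of these 4 calls that of Lef1 was lost without 2i/LIF control replicate 2 (edgeR adjusted p = 0.0527). Stat3 was not called in control cells.

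Steroid hormone synthesis is the pathway that Dax1 restrains outside the embryo. Of 17 such genes 8 passed the filter on low counts. Cyp11a1, the enzyme that makes pregnenolone from cholesterol and so opens the pathway, had counts of 64 and 76 in control and 24 and 32 in Dax1KO cells in 2i/LIF, and of 96 and 74 against 235 and 227 in LIF/serum. The groups did not overlap in either medium, and the Dax1KO libraries were below the control in 2i/LIF and above it in LIF/serum. The log2 fold change of Cyp11a1 was -1.36 in 2i/LIF (standard error 0.28, edgeR adjusted p = 0.0465) and 1.30 in LIF/serum (standard error 0.26, edgeR adjusted p = 0.0170). The difference between media was 2.66 (standard error 0.39, edgeR adjusted p = 0.0200). The call in 2i/LIF was lost in 11 of 15 alternatives, namely with each library left out but LIF/serum control replicate 1, without a filter, with the replicate block (0.0632), in a separate fit and with counts divided by 3, with edgeR adjusted p up to 0.251. The call in LIF/serum was lost without LIF/serum control replicate 2 or either LIF/serum Dax1KO library (0.0668 to 0.0802). The difference was lost without 2i/LIF control replicate 2 or any of the 4 Dax1KO libraries (0.0574 to 0.0927). All these values kept their sign. Cyp11a1 moved in LIF/serum together with the primitive endoderm markers. In 2i/LIF, where it was lower, 1 of the 9 markers was called, higher, a call lost in 9 of 15 alternatives. The part of these markers in the change of Cyp11a1 was not tested. Scarb1, the receptor that takes up cholesterol from lipoproteins, had counts of 1123 and 1099 in control and 2265 and 2951 in Dax1KO cells in LIF/serum, a log2 fold change of 1.09 (standard error 0.16, edgeR adjusted p = 0.00670), and stayed called under each of 15 alternatives. Star, which carries cholesterol into mitochondria and is the best known Dax1 target in the adrenal gland, was not called in Dax1KO cells.

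**Figure D5:**
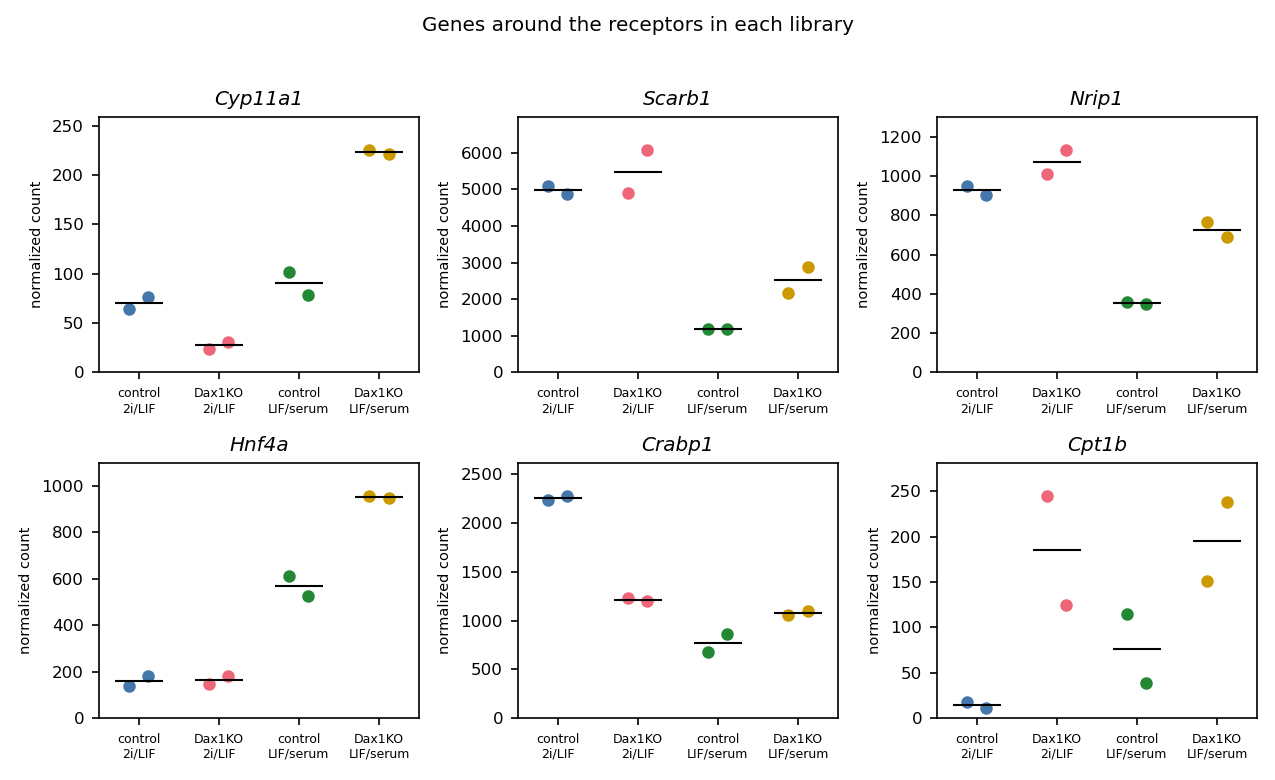
Normalized counts on linear axes from 0 for 6 genes around the receptors, with points for libraries and black lines for the means of the 2 libraries of each group. Cyp11a1 and Crabp1 lie lower in Dax1KO cells in 2i/LIF and higher in LIF/serum, while Nrip1, Hnf4a and Scarb1 lie higher in Dax1KO cells in LIF/serum.

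Esrra and Esrrb act on genes of fatty acid oxidation and the respiratory chain. Of 14 such genes 1 was called in Dax1KO cells in 2i/LIF and 4 in LIF/serum, all higher, beside 1.51% and 8.87% of all genes called higher. Cpt1b, the muscle form of the enzyme that admits fatty acids to mitochondria, had counts of 18 and 11 in control and 251 and 128 in Dax1KO cells in 2i/LIF, a log2 fold change of 3.66 (standard error 0.63, edgeR adjusted p = 0.0271). The call was lost without any of the 4 libraries of 2i/LIF and without a filter (edgeR adjusted p 0.0850 to 0.142). In LIF/serum the largest rises were Pdk4, which turns cells from glucose to fat as fuel, at 1.49, Cpt1a at 0.76 and cytochrome c (Cycs) at 0.64 on the log2 scale. Cpt1a held in all alternatives. Pdk4 and Cycs were not called without LIF/serum control replicate 1 or 2 or LIF/serum Dax1KO replicate 2, nor Pdk4 without a filter, nor Cycs in a separate fit (edgeR adjusted p 0.0589 to 0.184). The median log2 fold change of the 14 genes was 0.10 in 2i/LIF and -0.04 in LIF/serum, beside -0.01 and 0.01 over all genes.

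Nr2f1, Nr2f2 and Nr6a1 are known as retinoic acid responsive genes, and 9 of 11 other such genes were tested. In 2i/LIF Crabp1, a cytoplasmic retinoic acid carrier, fell by 0.89 on the log2 scale in Dax1KO cells (edgeR adjusted p = 0.0221), a call of Crabp1 lost without any of the 4 libraries of 2i/LIF or without a filter (edgeR adjusted p 0.0601 to 0.164). In LIF/serum Stra6, the retinol uptake receptor, rose by 2.67 on the log2 scale (edgeR adjusted p = 0.0101), and it was not called without LIF/serum Dax1KO replicate 2 (edgeR adjusted p = 0.0548). Neither Nr2f1 nor Nr2f2 was called in that comparison.

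Likeness of profile was measured as the root mean square difference of centred, depth-scaled log2 counts (prior count 2) over the 8 libraries, as a description. Closest to Nr5a2 were Ide, a protease of insulin, at 0.118, Btaf1, which removes TBP from DNA, at 0.127, and Nova1, a neuronal splicing factor, at 0.155, where the median gene was at 0.730. Closest to Nr2f1 were Ctnnd2 at 0.157, Trank1 at 0.171 and Tpbg at 0.181, with a median of 1.20. For Esrrb the closest were E2f7, Rdh10 and Sec24a at 0.0627 to 0.0689, for Esrra 3110040N11Rik, Pnpla2 and Cdk16 at 0.0844 to 0.0871, and for Nr6a1 Inpp5a, Gm19918 and Dlst at 0.104 to 0.109. These genes varied little over the libraries, so small distances mean less there. Nr2f2 had no gene nearer than Gm45501 at 0.467, followed by Cfap61 and Gm45598. Nr0b1 had none near, since its closest genes Vrtn, Gm9165 and Tdpoz4 lay at 2.84 to 2.95. The likeness of Nr5a2 and of Nr2f1 rests on 4 groups, and genes with the same group levels will score alike.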

How the data were processed

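The authors sequenced messenger RNA from both cell lines in both media on an Illumina HiSeq instrument and deposited raw counts, 1 whole number for each gene in each library. The submitters' processing notes name HISAT2 2.0.4, DESeq2 and the genome build mm10; the counting program and annotation are not given in the sources used here. Low counts pile up at 3 and 6, so low counts may not be numbers of separate fragments. Groups were taken from the sample labels. Symbols of 52403 of 52550 genes and exon lengths came from GENCODE M21 (GRCm38), and promoters from RefSeq (GRCm38.p6).

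The edgeR package (4.0.16, under R 4.3.3) was used for filterByExpr, TMM factors (0.960 to 1.04) and a quasi-likelihood fit over the 8 libraries with 1 mean per group. Benjamini-Hochberg adjustment ran over 20749 genes. The biological coefficient of variation was 20.9%, and the prior degrees of freedom were 4.04. Floors and their folds cover counting error only. The steps were tested on simulated data. The longest transcripts of the 7 genes were compared with every annotated transcript in blastn 2.17.0 at 95% identity; the longest match to another gene covered 3.27% of a transcript.

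The members, gene lists and tests were chosen with earlier results of these data known. Named were the 7 genes, every other nuclear receptor called, at most 3 called genes per direction of each other list, the 3 genes most like each member, and the neighbours of Nr0b1. Genes such as Star, Stat3, Ppargc1a and Nr5a1, outside this rule, were named for their role after their values were seen. Alternatives were DESeq2 1.42.0, RLE factors, no filter, at least 10 counts in every library, the replicate number as a block, separate fits, unadjusted p, each library left out and, chosen after seeing the data, counts divided by 3, a floor of 9 counts and the gene lists with each library left out. Protein sequences and a genome sequence were not used here. Some genes that these rules select are counted but not reported by name here.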

Additional observations from a re-analysis of the deposited data

Results flagged for a closer look

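A difference between media in the effect of Dax1KO was tested as an interaction in edgeR and called at an adjusted p of at most 0.05. It flagged 8 of the named and listed genes, where 2.87% of all genes tested were called, 2.05% higher and 0.824% lower. The 8 were not tested against this share. The effect is coded as that in LIF/serum minus that in 2i/LIF on the log2 scale, and none of the 7 receptors is among them. Of the genes tied to the receptors, Cyp11a1 of steroid synthesis differed by 2.66 (standard error 0.39, edgeR adjusted p = 0.0200), and the retinoic acid carrier Crabp1 by 1.37 (standard error 0.20, edgeR adjusted p = 0.0204), each with a fall in 2i/LIF. Crabp1 kept its sign but was not called without either control library of 2i/LIF or any of the 4 Dax1KO libraries or without a filter (edgeR adjusted p 0.0583 to 0.0973). Mageb4, beside Nr0b1 on the X chromosome, differed by 2.23 (edgeR adjusted p = 0.0194). Among the cell type markers the endoderm factors Gata4 and Gata6 differed by 1.5998 and 2.51 (edgeR adjusted p = 0.0161 and 0.0286), and the trophoblast and mesoderm factor Hand1 by 2.77 (edgeR adjusted p = 0.0258). The neural factor Pax6 differed by -2.68 (edgeR adjusted p = 0.0300), and the surface protein Thy1 by 2.47 (edgeR adjusted p = 0.00364), the only one of the 8 that stayed called in each of the 14 alternatives. The calls of Mageb4, Gata4, Gata6, Hand1 and Pax6 were each lost without any of 6 or 7 of the 8 libraries, and those of Gata6, Hand1 and Pax6 also without a filter, with edgeR adjusted p between 0.0506 for Gata4 and 0.116 for Pax6, and all kept their sign.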

How the results depend on the processing

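The members' counts of calls were recomputed under each alternative. In 2i/LIF, where 2 of the 7 genes were called in Dax1KO cells, 1 was called without a filter on low counts, and 1 with at least 10 counts in every library, which removes Nr0b1; the latter also left 1 in each of the other comparisons with 2 calls. At an unadjusted p of at most 0.05, 3 genes passed in each Dax1KO comparison and between media in Dax1KO cells, 2 between media in control cells, and 1 for the difference between media in the effect of Dax1KO. With each library left out, the count lay between 1 and 2 for Dax1KO in 2i/LIF, at 2 throughout in LIF/serum, at 0 for the difference between media, between 2 and 3 for the medium in control cells and between 0 and 3 for it in Dax1KO cells. DESeq2, RLE factors, separate fits and counts divided by 3 kept the counts, but in Dax1KO cells between media the separate fit called Nr5a2 (0.40) and did not test Nr0b1, which its filter removed. Over all genes, the 656 calls in 2i/LIF became 1277 with DESeq2 and 121 without a filter, the 3041 in LIF/serum 1842 without a filter and 1743 in a separate fit, and the 596 differences between media 1296 with DESeq2 and 119 without a filter; a separate fit could not be made for the last. With a library left out, these 3 counts lay between 38 and 673, 728 and 2496, and 36 and 344.

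Of 502 values of single members, 15 turned in sign, none of them called in the main analysis. With each library left out, the log2 fold change in Dax1KO cells in 2i/LIF ranged from -0.16 to 0.029 for Esrrb, from -0.12 to 0.56 for Nr6a1 and from -0.11 to 0.996 for Nr2f2. In LIF/serum it ranged from -0.078 to 0.45 for Esrrb and from -6.19 to 0.31 for Nr2f2, and with counts divided by 3 it was -0.0102 for Nr2f1. The difference between media ranged from -0.012 to 0.52 for Esrrb and from -0.27 to 0.43 for Nr6a1. Between media in control cells the range was -0.26 to 0.11 for Nr5a2, -0.28 to 0.27 for Esrrb, with 0.00021 without a filter, and -0.13 to 0.58 for Nr6a1. The cause was not tested.

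No source states that the replicate numbers in the titles pair libraries. Over genes the replicate differences of the groups correlated at -0.0150 to 0.108, which cannot exclude pairing, since noise of genes with few counts weakens such a correlation. With the number as a block, 2 members were called in each Dax1KO comparison, 0 for the difference between media, 2 for the medium in control cells and 3 in Dax1KO cells, where Nr5a2 passed at 0.43 (edgeR adjusted p = 0.0393). With 2 libraries per group, genes with few counts, such as Nr2f2, could show only changes of several fold.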
